A study of Homo sapiens with 4 samples.

Results

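The secreted Wnt antagonists SFRP1, SFRP2, SFRP4, SFRP5, FRZB, WIF1, DKK1, DKK2, DKK3 and DKK4 were followed in HCT116 cells with and without 5-azacytidine. They are 10 of the 21611 genes that could be named on the array, and they were found by the RefSeq accession of their 12 probes. The line HCT116 comes from a human colorectal carcinoma and carries an activating mutation of the beta-catenin gene. Its MG cells were selected by repeated passage through the membrane of a migration chamber, and its non-MG cells were those that stayed on the upper side. Each subpopulation was kept for 48 h with vehicle or with 5 µM 5-azacytidine, which inhibits DNA methyltransferases. Each of these 4 conditions was measured on 1 one-colour array. Without replicates, no condition could be tested against another. The question put to the data was which antagonists are undetected with vehicle and reappear with the drug.

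Wnt ligands act through Frizzled receptors and the co-receptors LRP5 and LRP6, and the signal stabilizes beta-catenin, which then activates transcription with TCF/LEF factors. The SFRP proteins, FRZB and WIF1 bind Wnt ligands outside the cell. DKK1, DKK2 and DKK4 bind LRP5 and LRP6 instead, whereas DKK3 is a divergent member of its family. Promoters of several of these genes, among them SFRP1, SFRP2, SFRP5, WIF1 and DKK3, are known to be methylated in colorectal cancer. In HCT116 cells the mutated beta-catenin lies downstream of the step at which the antagonists act.

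In these data 6 of the 10 antagonists (SFRP2, SFRP4, SFRP5, WIF1, DKK2 and DKK3) stayed below the level counted as well above background on every array. On a given array 62.3% to 62.7% of all named genes passed it, a share for single arrays and not for all 4 together. Of the 21611 named genes, 7697 were undetected with vehicle in both subpopulations, and 535 of these were detected with the drug in at least 1. FRZB, DKK1 and DKK4 were well above background on all 4 arrays, for which no share over all genes is given. SFRP1 was not well above background with vehicle in either subpopulation and reappeared with 5-azacytidine in the MG cells. In the non-MG cells 8 of the 10 SFRP1 spots with the drug were brighter than any with vehicle, but the probe did not pass as well above background. DKK4 was higher and FRZB lower with 5-azacytidine in both subpopulations past 1.5-fold, whereas DKK1 differed by less than its error.

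A promoter entry of RefSeq (GRCh38.p14) was matched for 6 of the antagonists, namely SFRP2, SFRP4, SFRP5, FRZB, WIF1 and DKK1, but not for SFRP1, DKK2, DKK3 and DKK4. The stretches of 250 bases upstream of the start are shown for DKK1 and FRZB, which were detected on every array, and for SFRP2 and SFRP5, the SFRP genes with the lowest and the highest CpG count, which were detected on none. They are read 5′ to 3′ on the strand of the gene, and capitals mark CpG dinucleotides, the sites at which DNA methyltransferases act. DKK1 lies at chr10:52314031-52314280 on the plus strand, FRZB at chr2:182866638-182866887, SFRP2 at chr4:153789084-153789333 and SFRP5 at chr10:97772000-97772249, the last 3 on the minus strand.
DKK1: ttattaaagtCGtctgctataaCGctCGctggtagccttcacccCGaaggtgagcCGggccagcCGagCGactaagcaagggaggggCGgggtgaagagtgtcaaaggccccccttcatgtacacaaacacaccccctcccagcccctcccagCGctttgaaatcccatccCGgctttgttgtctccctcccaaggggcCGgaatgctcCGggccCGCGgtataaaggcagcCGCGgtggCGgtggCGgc
FRZB: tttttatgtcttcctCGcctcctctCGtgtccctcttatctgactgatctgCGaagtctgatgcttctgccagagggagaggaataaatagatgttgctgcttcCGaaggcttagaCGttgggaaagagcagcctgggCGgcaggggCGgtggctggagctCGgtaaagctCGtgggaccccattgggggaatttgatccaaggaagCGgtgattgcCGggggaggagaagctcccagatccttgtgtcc
SFRP2: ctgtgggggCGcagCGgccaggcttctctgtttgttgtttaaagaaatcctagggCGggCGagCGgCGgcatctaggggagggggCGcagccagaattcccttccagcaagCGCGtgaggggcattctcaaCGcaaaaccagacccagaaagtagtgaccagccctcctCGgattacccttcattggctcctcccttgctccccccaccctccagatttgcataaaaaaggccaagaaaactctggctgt
SFRP5: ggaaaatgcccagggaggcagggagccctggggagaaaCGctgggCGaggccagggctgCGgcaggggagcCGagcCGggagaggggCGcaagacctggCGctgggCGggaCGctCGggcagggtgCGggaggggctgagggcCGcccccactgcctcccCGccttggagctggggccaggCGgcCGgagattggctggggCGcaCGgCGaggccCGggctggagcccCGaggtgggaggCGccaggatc

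These stretches hold 18 CpG dinucleotides in DKK1, 11 in FRZB, 11 in SFRP2 and 21 in SFRP5. Over the full RefSeq window of 300 bases, which runs 50 bases past the start, SFRP2 had 15 CpG, FRZB 17, DKK1 20, SFRP4 23, SFRP5 28 and WIF1 29. The median of all 27305 promoters was 14, so all 6 windows lay above it. Among antagonists with a window, FRZB and DKK1, detected on every array, had 17 and 20 and fell among the undetected ones, from 15 to 29. DKK4, also detected on every array, and the undetected DKK2 and DKK3 had no window to compare. The letters ATCAAAG, a form of the motif of TCF/LEF factors, were searched on both strands (CTTTGAT on the other). They were found in 0 of the 6 windows, compared with 2.64% of all promoters, so the count does not set the antagonists apart. Only these exact letters were searched, and motifs that differ from them, in DKK1 or elsewhere, were not counted. The arrays measure RNA, and the methylation of these promoters was not measured here. The paper also profiled DNA methylation of MG and non-MG cells on a separate array type, and those data were not used here.

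**Figure D1:**
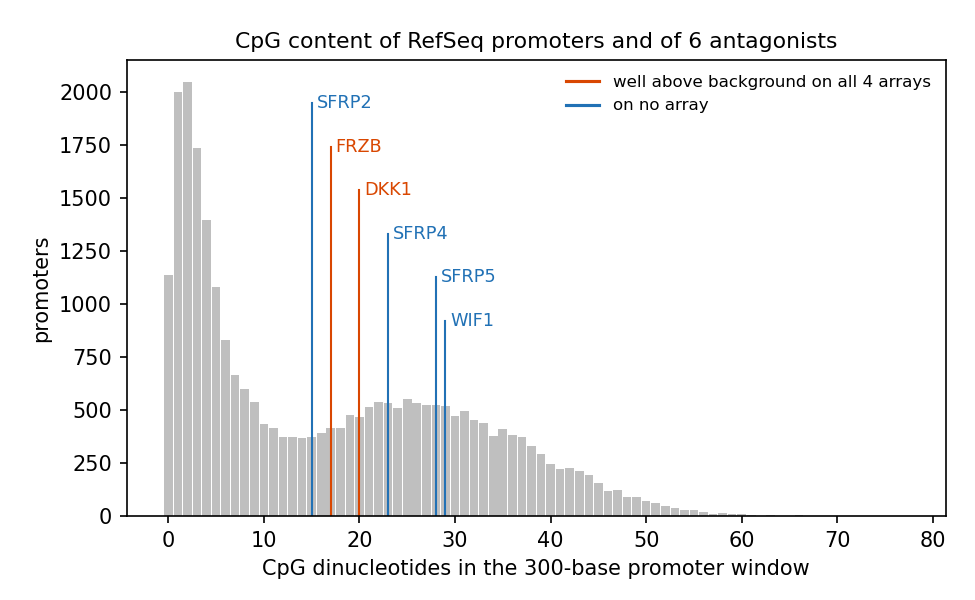
CpG dinucleotides in 300-base promoter windows of RefSeq (x axis) against the number of promoters (y axis, grey bars, 27305 in all), with a vertical line for each of 6 antagonists whose height has no meaning. The lines of FRZB (17) and DKK1 (20), detected on all 4 arrays, fall among those of SFRP2, SFRP4, SFRP5 and WIF1 (15 to 29), detected on none.

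The arrays held 50594 probes, of which 21384 to 21882 were well above background, a flag that the scanner software sets for each spot. A probe was called well above background where at least 50% of its usable spots carried the flag, and a gene where any of its probes did. The lowest intensity of such a probe was 9.95 to 11.8, and the 308 negative control spots had medians of 2.23 to 2.73. The array is a readout of the whole culture, so fewer expressing cells and less RNA per cell cannot be told apart. The non-MG cells lay in slide row 1 and the MG cells in row 2, and slide column 3 held the arrays with vehicle and column 4 those with the drug. Place on the slide and condition therefore cannot be told apart. Of 10 epithelial and colon markers, 9 were well above background on all 4 arrays and VIL1 on none. Among markers of blood, endothelial and fibroblast cells, VWF and COL1A1 were well above background on all 4 arrays, and 9 were on none.

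With vehicle, 3 of the 10 antagonists passed as well above background in either subpopulation. The shares over all named genes were 62.4% and 62.3%. With 5-azacytidine the counts were 3 and 4, compared with 62.7% and 62.3% of all genes. Thus 7 antagonists were undetected with vehicle in both subpopulations. Of these, 0 reappeared among non-MG cells, where 4.99% of 8124 undetected genes did so. In the MG cells 1 of the 7, SFRP1, reappeared, compared with 5.95% of 8145 genes. No antagonist went the other way, from detected with vehicle to undetected with the drug, which 2.48% of genes did in non-MG and 3.62% in MG cells. Of the 7697 genes undetected with vehicle in both subpopulations, 1.66% came up in both with the drug and 6.95% in at least 1, compared with 0 and 1 of the 7 antagonists.

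**Figure D2:**
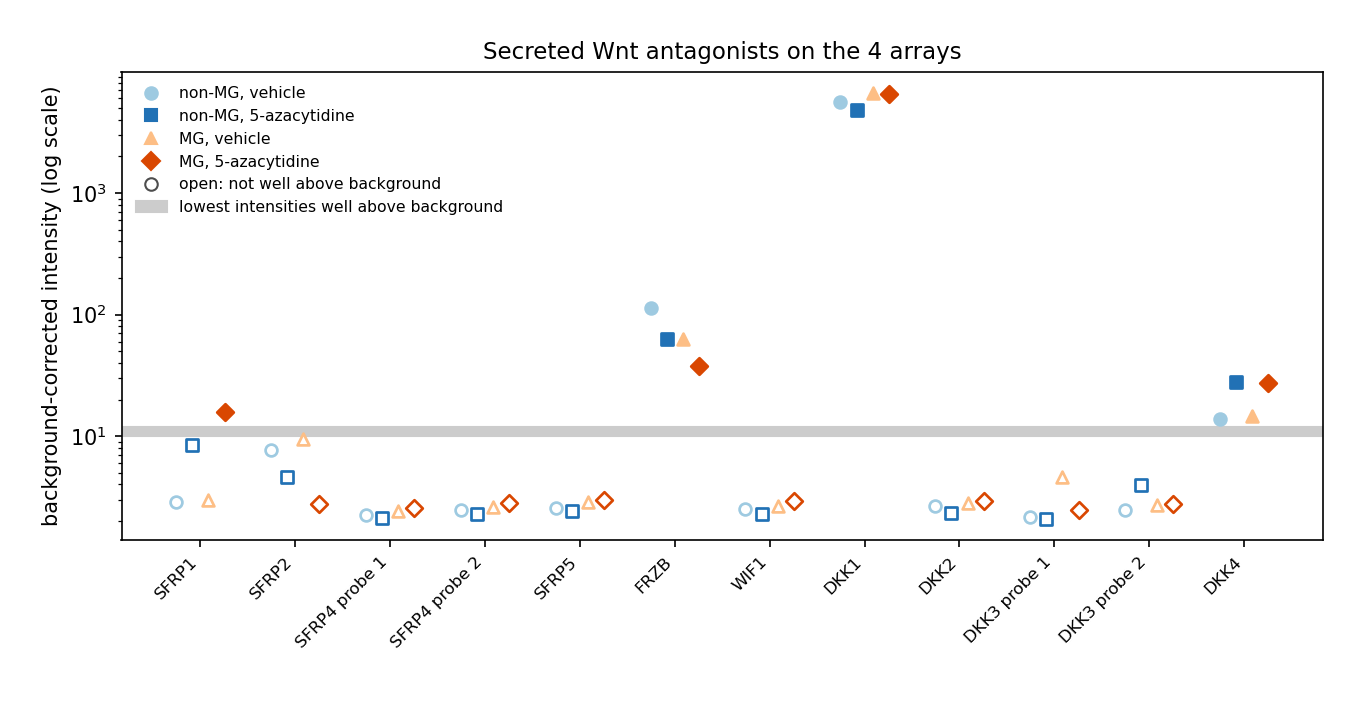
Background-corrected intensity (y axis, log scale) of the 12 antagonist probes (x axis) on the 4 arrays, with filled symbols for probes well above background and open symbols for the others. The grey band spans the lowest intensities well above background, 9.95 to 11.8. SFRP1 is filled on the array of MG cells with 5-azacytidine, and FRZB, DKK1 and DKK4 are filled on all 4 arrays.

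SFRP1 encodes a secreted protein with a Frizzled-like domain. Its probe was spotted 10 times on each array. In the non-MG cells the spots ranged from 2.24 to 5.88 with vehicle, with a median of 2.53, and from 3.32 to 13.2 with 5-azacytidine, with a median of 10.05. Of the 10 spots with the drug, 8 were above the highest spot with vehicle, so the ranges overlapped. In the MG cells they ranged from 2.31 to 6.67 with vehicle, with a median of 2.72, and from 7.45 to 18.6 with 5-azacytidine, with a median of 14.99. Here all 10 spots with the drug were above the highest spot with vehicle. The 10 spots of an array share 1 labelled RNA, and their spread covers spotting and scanning only.

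The flag for signal well above background was carried by 0 of the 10 SFRP1 spots with vehicle on either array. With the drug it was carried by 3 of 10 spots for non-MG cells and by 7 of 10 for MG cells, where the software marked 2 spots as outliers and 8 were used. Against the negative controls, the median SFRP1 spot with vehicle was reached by 87 of 308 control spots for non-MG cells and by 96 for MG cells. With the drug it was reached by 1 control spot on each array. SFRP1 was thus at the level of the negative controls without the drug and above nearly all of them with it.

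Since SFRP1 with vehicle has only a bound, the SFRP1 intensity of MG cells was at least 1.40-fold higher with the drug, which does not reach 1.5-fold. With the signals used as given, without bounds, its log2 ratio was 2.42. No fold is given for the non-MG cells, in which neither array was well above background. Between the treated arrays, SFRP1 was at least 1.23-fold brighter for MG than for non-MG cells. The difference between the subpopulations in the response of SFRP1 was not tested. With any flagged spot taken as enough, SFRP1 would also count as reappearing in the non-MG cells.

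**Figure D3:**
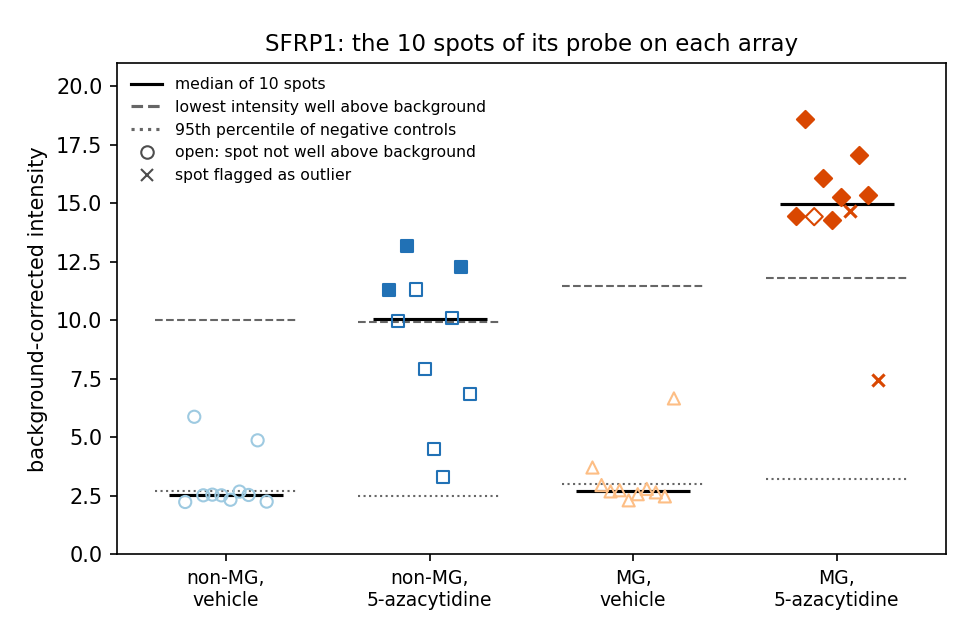
Background-corrected intensity (y axis, linear) of the 10 SFRP1 spots on each array (x axis), with a bar at the median, a dashed line at the lowest intensity well above background and a dotted line at the 95th percentile of the negative controls. With 5-azacytidine the medians are 10.05 in non-MG and 14.99 in MG cells, compared with 2.53 and 2.72 with vehicle.

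SFRP2, SFRP4 and SFRP5 are relatives of SFRP1 that likewise bind Wnt ligands. The intensity of SFRP2 was 7.70 in non-MG cells with vehicle, 4.62 in non-MG cells with 5-azacytidine, 9.39 in MG cells with vehicle and 2.78 in MG cells with 5-azacytidine. Its spot was reached by 1, 1, 4 and 139 of the 308 negative control spots on these arrays, in the same order. SFRP2 therefore stood above most controls on the first 3 arrays and among them on the last, and it never passed as well above background. The spot SD at such intensities was 0.32 to 0.59 on the log2 scale, and no fold is given.

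The SFRP4 probes gave 2.26 and 2.45 in non-MG cells with vehicle, 2.12 and 2.29 in non-MG cells with 5-azacytidine, 2.44 and 2.60 in MG cells with vehicle, and 2.58 and 2.80 in MG cells with 5-azacytidine. SFRP5 gave 2.59, 2.44, 2.89 and 3.01 on the same arrays. WIF1, which binds Wnt ligands through a domain of its own, gave 2.50, 2.29, 2.66 and 2.90. All of these values lay below the 95th percentile of the negative controls of their array, which was 2.71, 2.48, 3.03 and 3.23. SFRP4, SFRP5 and WIF1 thus could not be told from background with or without 5-azacytidine.

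FRZB, also called SFRP3, was the SFRP relative that was well above background in every condition. Its intensity was 113 ± 11.6 in non-MG cells with vehicle, 62.9 ± 6.76 in non-MG cells with 5-azacytidine, 63.1 ± 7.002 in MG cells with vehicle and 37.7 ± 4.90 in MG cells with 5-azacytidine (± the error the scanner software gives for 1 spot). The untreated non-MG cells were highest and the treated MG cells lowest.

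After centring on the 75th percentile of each array, the log2 ratio of FRZB with 5-azacytidine over vehicle was -0.64 with a spot error of 0.16 for non-MG cells, and -0.71 with a spot error of 0.18 for MG cells. FRZB was thus 1.56-fold and 1.63-fold lower with the drug, but with normexp background correction the log2 ratios were -0.22 and -0.29, within 1.5-fold. Among all genes with a ratio, 1.86% (non-MG) and 2.81% (MG) were lowered beyond 1.5-fold. Past that threshold for both subpopulations were 35 of 13394 genes, or 0.261%. The responses of FRZB in MG and non-MG cells differed by -0.07 with an error of 0.24.

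FRZB was also lower in MG than in non-MG cells, by 2.03-fold with vehicle (log2 ratio -1.02, spot error 0.16) and by 2.14-fold with 5-azacytidine (-1.10, spot error 0.18). With normexp the log2 ratio with vehicle was -0.52, within 1.5-fold. Of all genes, 8.7% and 7.11% were lower in MG cells past 1.5-fold in these comparisons and 7.14% and 7.18% were higher, as 0 of the antagonists were in either. The comparisons between treatments and between subpopulations share arrays and are not independent of each other. On the centred log2 scale, FRZB levels were 0.38 in non-MG cells with vehicle, -0.26 in non-MG cells with 5-azacytidine, -0.64 in MG cells with vehicle and -1.35 in MG cells with 5-azacytidine. The gaps between neighbours in this order were 4.08, 2.11 and 3.87 times their spot error, so the middle pair was the least apart. The software errors of the FRZB log2 ratios, 0.21 to 0.25, were larger than the spot errors, and by them the gaps are fewer errors wide.

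**Figure D4:**
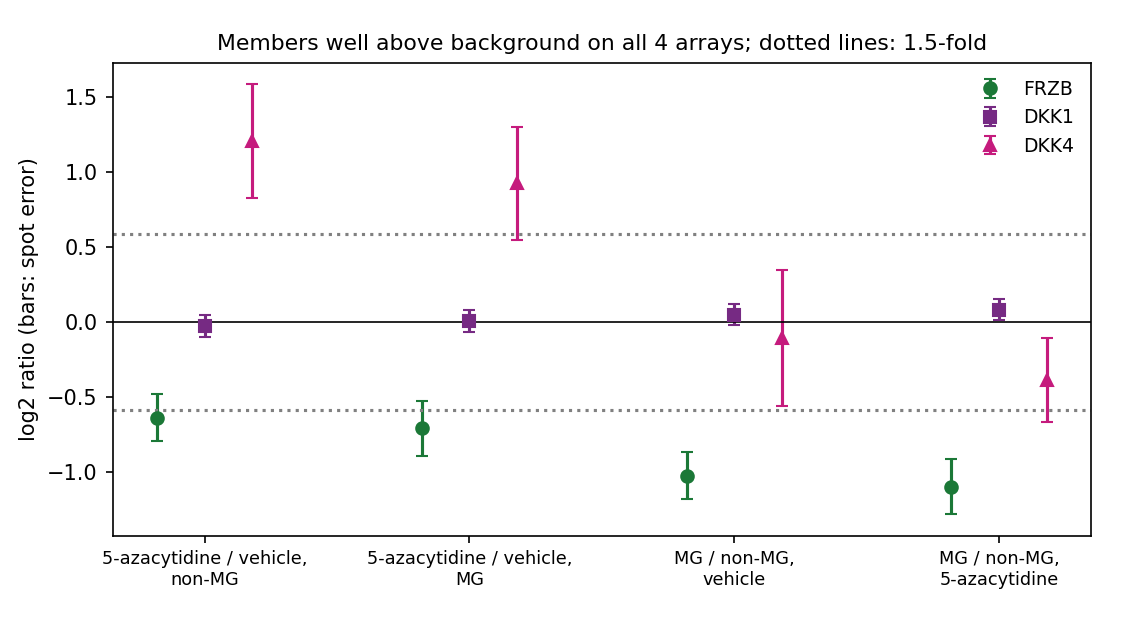
Log2 ratio (y axis) of FRZB, DKK1 and DKK4 in 4 comparisons (x axis), each from 1 probe, with bars for the spot error and dotted lines at 1.5-fold. FRZB lies below the lower line in all 4 comparisons, DKK4 lies above the upper line in both 5-azacytidine comparisons, and DKK1 lies near 0 throughout.

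DKK1, the founding member of the Dickkopf family and itself a target gene of beta-catenin, had an intensity of 5629 ± 563 in non-MG cells with vehicle, 4774 ± 477 in non-MG cells with 5-azacytidine, 6608 ± 661 in MG cells with vehicle and 6487 ± 649 in MG cells with 5-azacytidine (± software error). No DKK1 spot was saturated. The centred log2 levels were 6.02, 5.99, 6.07 and 6.07. The log2 ratio of DKK1 with 5-azacytidine over vehicle was -0.03 for non-MG and 0.0069 for MG cells, with a spot error of 0.07. Between MG and non-MG cells it was 0.05 with vehicle and 0.08 with 5-azacytidine. All 4 differences were within the software error of 0.20, although 0.08 was slightly past the spot error of 0.07. No order of the DKK1 levels can be given.

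DKK4, also reported as a target gene of beta-catenin, was well above background on all 4 arrays, but with vehicle it lay close to the limit. Its intensity was 13.9 ± 2.63 in non-MG cells with vehicle, 27.7 ± 3.47 in non-MG cells with 5-azacytidine, 14.6 ± 2.86 in MG cells with vehicle and 27.2 ± 3.76 in MG cells with 5-azacytidine (± software error). Both treated arrays were above both arrays with vehicle. CTAG2 at 12.5 in non-MG cells and WNT4 at 13.8 in MG cells, both with vehicle, were not well above background. The lowest intensity well above background is therefore not a limit that all brighter probes pass.

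The log2 ratio of DKK4 with 5-azacytidine over vehicle was 1.20 for non-MG and 0.92 for MG cells, each with a spot error of 0.38. These are 2.30-fold and 1.90-fold rises, but with normexp background correction the log2 ratios were 0.33 and 0.23, within 1.5-fold. Of all genes, 3.46% (non-MG) and 5.25% (MG) were raised beyond 1.5-fold, and 1.72% in both. The responses of DKK4 in MG and non-MG cells differed by -0.28 with an error of 0.53. Between MG and non-MG cells the log2 ratio was -0.11 with vehicle and -0.39 with 5-azacytidine, within 1.5-fold. In the order of DKK4 levels, the treated pair was 1.38 spot errors apart and the pair with vehicle 0.23, whereas 2.17 spot errors separated the pairs.

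DKK2 gave intensities of 2.64 and 2.35 in non-MG cells and 2.84 and 2.95 in MG cells, each with vehicle and then with 5-azacytidine, and was reached by 38 to 76 of the 308 negative control spots. DKK3 has a pair of probes that disagreed where either stood out. The first gave 2.14, 2.09, 4.59 and 2.45 in the order of non-MG cells with vehicle and with 5-azacytidine and MG cells with vehicle and with 5-azacytidine, and the second gave 2.46, 3.93, 2.70 and 2.76. The first was highest in MG cells with vehicle and the second in non-MG cells with 5-azacytidine, and neither was well above background on any array.

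Among 13 other extracellular inhibitors of Wnt signalling, 3 were well above background on all 4 arrays and 7 on none, among them SOST, NOTUM and APCDD1. For counts on all 4 arrays or on none, here and in the lists below, no share over all genes is given. These counts therefore do not tell whether a list differs from other genes. DRAXIN was the only one of them to reappear, in the non-MG cells, with intensities of 6.16 with vehicle and 11.1 with 5-azacytidine. In MG cells DRAXIN was 12.7 with vehicle and 20.6 with the drug, a log2 ratio of 0.73. TRABD2B and SHISA3 were well above background in MG cells with vehicle but not with 5-azacytidine. TRABD2B passed there through a single probe, at 16.1 with vehicle and 2.48 with the drug, and its other probes passed on no array. SHISA3 rests on 1 spot per array, at 22.4 and 2.38 in these cells. DRAXIN, TRABD2B and SHISA3 were picked out with their values known, as were LGR6, SOX17, CTAG2 and DAZL among the genes that follow. Of the 3 inhibitors detected on all arrays (DKKL1, TRABD2A and GPC3), none differed past 1.5-fold between treatments.

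Of 20 receptors and co-receptors of the pathway, 16 were well above background on all 4 arrays, including LRP5, LRP6 and the DKK receptors KREMEN1 and KREMEN2, and 3 on none. The log2 ratio of LRP5 with 5-azacytidine was -0.34 for non-MG and -0.23 for MG cells. FZD9, with log2 ratios of 0.90 in non-MG and 0.48 in MG cells, passed 1.5-fold in the former. LGR6 reappeared in the MG cells, at 10.4 with vehicle and 26.3 with 5-azacytidine. In non-MG cells LGR6 was well above background with vehicle and with the drug, at 16.1 and 12.4. Of 19 Wnt ligands, 9 were well above background on all arrays and 8 on none. WNT11, a ligand best known for beta-catenin-independent signalling, was raised past 1.5-fold in both subpopulations, with log2 ratios of 1.04 and 0.82 and intensities that went from 29.5 to 52.4 in non-MG cells and from 42.0 to 72.5 in MG cells. Of 4 R-spondins, which enhance Wnt signalling, RSPO4 was detected on all arrays, with log2 ratios of 0.19 and 0.83.

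Inside the cell, 13 of 16 brakes of the pathway on the array were detected on all 4 arrays. SOX17, a transcription factor that opposes beta-catenin, reappeared in the MG cells, with intensities of 3.21 with vehicle and 15.8 with 5-azacytidine, and remained undetected in the non-MG cells at 2.30 and 4.99. AXIN2, a feedback inhibitor and target gene, had log2 ratios with 5-azacytidine of 0.36 in non-MG and 0.32 in MG cells. Of 17 common target genes of beta-catenin, 12 were detected on all arrays, and with 5-azacytidine 0 of these were raised past 1.5-fold in non-MG and 1, NKD1, in MG cells (log2 ratio 0.81). No target gene was lowered past 1.5-fold with the drug in either subpopulation. Between MG and non-MG cells, AXIN2 and SP5 were higher past 1.5-fold with vehicle (log2 ratios 0.81 and 1.20) and with 5-azacytidine (0.77 and 1.07), as was NKD1 with 5-azacytidine (0.62). EPHB3 was lower past 1.5-fold with vehicle (-0.62). These are 2 of 12 target genes higher and 1 lower with vehicle, beside 7.14% and 8.7% of all genes, and 3 higher and 0 lower with 5-azacytidine, beside 7.18% and 7.11%. The brake and target lists share AXIN2, NKD1, RNF43 and ZNRF3, and DKK1 stands among both the antagonists and the targets.

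Cancer-testis genes, which promoter methylation keeps off in most somatic cells, were counted in the same way. Of 15 on the array, 6 were well above background on all 4 arrays, so the list as a whole was not silent in these cells. In the non-MG cells 9 of the 15 were undetected with vehicle and 3 of these reappeared (MAGEA1, CTAG2 and SSX2). In the MG cells 8 were undetected and 3 reappeared (MAGEA1, SSX2 and DAZL). MAGEA1 went from 2.73 to 23.0 (non-MG) and from 3.01 to 31.0 (MG). The antagonists had 0 of 7 and 1 of 7 in the same counts. Of all genes with a CpG count above 14 that were undetected with vehicle, 7.29% reappeared in non-MG and 8.54% in MG cells, compared with 4.11% and 4.74% of genes at or below it. SFRP2, SFRP4, SFRP5 and WIF1 are undetected antagonists with such promoters, and 0 of these 4 reappeared, which is not set apart from those shares. SFRP1, the antagonist that did reappear, had no matched promoter entry and is not in this count, nor are DKK2 and DKK3. These are counts at 48 h, and no other time was measured.

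The profiles most like those of FRZB and DKK4 were sought among 16629 probes of other genes well above background on all 4 arrays, by the root mean square difference between profiles on the centred log2 scale. For FRZB they were SPTB (0.048), TJP3 (0.053) and KCNQ1 (0.060), and for DKK4 they were TPM1 (0.063), OSCAR (0.064) and RPL3L (0.112). The likeness rests on 4 arrays and is a description.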

How the data were processed

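Gene expression was measured on 4 one-colour Agilent arrays of 1 slide, 1 per condition, from 400 ng of RNA each. The labels and the methods of the paper name different RNA kits. The authors deposited the spot-level output of Agilent Feature Extraction 11.5.1.1, which holds linear background-corrected intensity values without normalization between arrays, and a table of log2 values centred per probe. Control and outlier spots were left out. From the log2 intensity, averaged over the spots of a probe, the array's 75th percentile was subtracted. Ratios were averaged over probes of a gene and called past 1.5-fold. Where 1 of the arrays compared was not well above background, the ratio is a bound against the lowest signal well above background there, or against the probe's own signal if higher. Where neither was, none is given. Spot error was taken from the SD among spots, by intensity, of probes with at least 8 of them. Of 50594 probes, 30000 (59.3%) were matched by accession to a gene of RefSeq GRCh38.p14. The design of the array refers to another build. The 4 arrays limit the precision, and no test was made. All 10 antagonists are named. From the other lists were named genes that reappeared in both subpopulations and the up to 4 with the largest mean response among those well above background on all arrays, and any further genes once values had been seen. The antagonists and lists were chosen with earlier results of these data known. The counting of genes past 1.5-fold was tested on simulated arrays, with 2-fold changes in single-probe genes well above background. Reappearance, loss and bounds were not simulated, nor were signals as low as those of SFRP1 and DKK4. The software was Python 3.11.15 (pandas 2.3.3, numpy 2.4.6, matplotlib 3.10.9) and, for normexp and quantile normalization, limma 3.58.1 in R 4.3.3. The alternatives were normexp background correction, median centring, quantile normalization, the authors' values, other filters, probe rules and detection rules, and a 2-fold threshold. Of the markers of other cell types, 1 is not reported here.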

Additional observations from a re-analysis of the deposited data

How the results depend on the processing

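No paired analysis was possible because the groups compared have 1 array each and share 1 replicate number. For the same reason no array could be left out. A model with additive terms for subpopulation and drug, which would leave 1 residual degree of freedom, was not fitted. FRZB stayed lower and DKK4 higher with 5-azacytidine in both subpopulations under the 4 alternatives that could move the ratio of their single probe (normexp, median centring, quantile normalization and the authors' values), with log2 ratios from -0.74 to -0.22 (non-MG) and -0.75 to -0.29 (MG) for FRZB, and from 0.33 to 1.20 and 0.23 to 0.92 for DKK4. The smallest values came with normexp (offset 50, on the median spot signal, as the files used hold no mean signal), under which 0 antagonists were raised or lowered in either 5-azacytidine comparison and, between subpopulations with vehicle, 0 were lowered. At 2-fold, 0 were lowered with 5-azacytidine in either subpopulation and 0 were raised in MG cells. In both subpopulations 2 were raised (SFRP1 and DKK4) with the authors' values, with signals used as given without bounds, with the percentile filter of the study, and, in a rule added after seeing the data, where any flagged spot counted. SFRP1 then had a log2 ratio of 2.04 to 2.42 in the MG cells, compared with a bound of 0.48. With the percentile filter, 2 (SFRP2 and FRZB) were lowered with 5-azacytidine in MG cells and in MG over non-MG cells with the drug. Median centring moved the median of all genes in MG over non-MG cells to 0.21 with vehicle and 0.30 with 5-azacytidine, with FRZB at -0.83 and -0.84 and DKK1 at 0.25 and 0.34. With the 75th percentile the median of all genes was 0.01 and 0.05.

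Which genes reappeared depended on the detection rule. With the software's flag for positive and significant signal, 2 antagonists reappeared in non-MG cells (SFRP1 and DKK3), 2 were lost in MG cells (SFRP2 and DKK3), and 6 were detected in non-MG cells with 5-azacytidine and 5 in MG cells with vehicle. With any flagged spot, 1 (SFRP1) reappeared in non-MG cells. With the 20th percentile of each array as the limit, 8 were detected with vehicle in each subpopulation. With 5-azacytidine 10 were detected in non-MG and 8 in MG cells. Under this limit 2 reappeared in non-MG cells (SFRP4 and DKK3) and 2 in MG cells (SFRP4 and WIF1), and 2 were lost in MG cells (SFRP2 and DKK3). Most probes of any array pass such a limit by construction, and SFRP4 and WIF1 passed it at intensities that could not be told from the negative controls. For these other detection rules no share over all genes is given, so the counts have no background beside them. The cause of these differences was not tested. Of the recomputed counts, 30 moved by over 1.5 times and 82 did not. Signal over background limits SFRP1 and DKK4, with vehicle intensities of 13.9 and 14.6 for DKK4, close to probes without the flag.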
